A study of Mus musculus with 8 samples.

Results

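Genes of the machinery that cleaves pre-mRNA and adds the poly(A) tail were followed in mouse NIH3T3 cells through arsenite stress and recovery, by their read levels and by the polyadenylation sites (PASs) at which their own transcripts ended. They are Cpsf1, Cpsf3, Fip1l1, Cstf2, Cstf3, Nudt21, Cpsf6, Pcf11, Clp1 and Pabpn1, a list of known factors given by name, and all 10 are among the 9875 genes present in all 3 tables of genes. NIH3T3 is an established fibroblast line. Proliferating cells were left nontreated (NT), exposed to 250 µM sodium arsenite for 1 h (AS), or exposed in the same way and then returned to normal medium, which lasted 4 h in RC4 and 8 h in RC8. Total RNA of each condition was made into 1 QuantSeq FWD library, in which reads start upstream of the poly(A) tail, and the MAAPER model assigned the reads of a gene to known PASs from the distance between read and PAS. All cells grew in medium with calf serum, and every treated library was set against the same NT library, so the 3 comparisons share their control.

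Cleavage and polyadenylation is carried out by several complexes. CPSF recognises the poly(A) signal AAUAAA a short way upstream of the cut and makes the cut, CstF binds U- or GU-rich sequence downstream of it, CFIm binds UGUA upstream, CFII joins the complex to the transcribing polymerase, and the nuclear poly(A) binding protein coats the new tail. A gene with several PASs yields transcripts with longer or shorter 3′ UTRs, and a PAS inside an intron or an upstream exon yields a transcript without the end of the coding sequence. Genes of this machinery can carry such internal PASs themselves, and those of Cstf3 and Pcf11 are known cases.

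Since each condition was sequenced as a single library, no value below has an error between cultures and no condition was tested. Every interval is a 95% interval that covers the counting of reads only, neither the assignment of reads to PASs nor differences between cultures. The libraries held 22.4 M to 23.0 M reads on genes. The 2 deposited count columns of a library differed by no more than read sampling in most genes (5.22% to 5.64% of genes with a chi-square p below 0.05) and were added. All 7 fibroblast markers looked for, Col1a1 and Vim among them, were listed in every table, and none of 7 markers of epithelial, blood or endothelial cells was listed in any table. The tables hold genes with at least 50 reads in a library. Levels are given as reads per 1000000 reads on genes (RPM). The median gene stood at log2 changes of RPM of -0.04 in AS, -0.30 at RC4 and 0.01 at RC8, so changes in RC4 are also given relative to that median.

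The 10 genes had 30 distinct PASs, of which 25 were listed in all 3 tables, out of 21565 distinct PASs in the series. Cpsf1, Cpsf3, Nudt21 and Clp1 had a single PAS each and the other 6 genes had more. The PASs of a gene are numbered from 5′ to 3′ over all tables. Of all PASs, 6 were internal, namely PAS 1 of Pcf11 in intron 1, PAS 1 in intron 1 and PAS 2 and 3 in intron 3 of Cstf3, PAS 1 of Cstf2 in intron 11, and PAS 1 of Pabpn1 in the coding part of exon 6, by the reference transcript of each gene. Upstream of them lay 192 of 4659 coding nt of Pcf11, 27 or 225 of 2151 coding nt of Cstf3, 1509 of 1740 coding nt of Cstf2 and 844 of 906 coding nt of Pabpn1.

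The 30 bases that end at the PAS are shown for the sites whose shares changed most and for their partners in the same gene, read from the mm9 genome on the strand of the gene and with the poly(A) signal nearest to the site, or a known variant of it, in capitals. Those of Pcf11 lie on the minus strand at chr7:99816737-99816766 (intron 1), chr7:99792729-99792758 (3′ UTR) and chr7:99792053-99792082, which ends 169 nt beyond the annotated end of the gene.
Pcf11 PAS 1: tctgactctAATAAAtggttttgaaatgtg
Pcf11 PAS 2: gtgtaatatttatgcacaccatcaAATAAA
Pcf11 PAS 4: ATTAAAacttgtgattttttttccgtggga
Those of Cstf3 lie on the plus strand at chr2:104448872-104448901 (intron 1), chr2:104449557-104449586 (intron 3), chr2:104505419-104505448 and chr2:104505553-104505582 (both in the 3′ UTR). The first of them ends in a run of A in the genome itself.
Cstf3 PAS 1: aataaataaatctttATTAAAaaaaaaaaa
Cstf3 PAS 2: tgcaacaacATTAAAacagtttcaatggtg
Cstf3 PAS 4: ttgtaaaacattttcacattttctgaaaaa
Cstf3 PAS 5: tttgaaaggAATAAAaggacctcaaaaaca
Both PASs of Fip1l1 lie on the plus strand in the 3′ UTR, at chr5:74992120-74992149 and chr5:74994786-74994815, and those of Cpsf6 shown here on the minus strand in the 3′ UTR, at chr10:116785908-116785937 and chr10:116781725-116781754.
Fip1l1 PAS 1: acgttaacttttttcttttccaaAATAAAa
Fip1l1 PAS 2: atcAATAAAaatgatcttgtgaaatattaa
Cpsf6 PAS 4: cagtgaATTAAAcatgactaattaagtgtc
Cpsf6 PAS 9: gtattgaaAATAAAaacaaagttttggtaa
The 3 PASs of Pabpn1 lie on the plus strand at chr14:55516055-55516084 (exon 6), chr14:55517036-55517065 and chr14:55517692-55517721, the last of them 715 nt beyond the annotated end.
Pabpn1 PAS 1: cccgatctcgattctacagtggttttaaca
Pabpn1 PAS 2: gggggagaatcctataactaactgaggagg
Pabpn1 PAS 3: actcatttccaggggatgggattttttttt

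AATAAA or ATTAAA was present on the transcribed strand within 40 nt upstream of 18 of the 30 PASs (60.0%), against 51.9% of all PASs of the series. Another 5 lacked both but held at least 1 of the 10 variants searched, as did 18.3% of all PASs, and 7 held neither signal nor variant. The variants differ from AATAAA at a single base, namely at the first base in TATAAA, in CATAAA and in GATAAA, at the second base in AGTAAA and in ACTAAA, at the third base in AAGAAA, at the fourth base in AATGAA and at the fifth base in AATATA, in AATACA and in AATAGA. None of the 3 Pabpn1 sites held the signal, a variant or TGTA. TGTA, the DNA form of the CFIm motif, was present within 100 nt upstream of 19 PASs (63.3%), against 55.0% of all PASs, and 4 copies preceded PAS 2 of Pcf11. An A-rich stretch of the genome at the site was present at PAS 1 of Cstf3 and PAS 1 of Cstf2. Oligo(dT) could also prime from such a stretch. These were 2 of 30 PASs (6.67%), against 12.1% of all PASs of the series. Both lie in introns. The other intronic PASs of the 10 genes, PAS 1 of Pcf11 and PAS 2 and 3 of Cstf3, had no such stretch. Among all intronic PASs of the series 27.7% had one, which compares with these intronic sites and not with the 6.67%.

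Read levels of 7 of the 10 factors were lowest after 4 h of recovery, those of Pabpn1 after 8 h, of Cpsf6 at the end of arsenite and of Cstf3 in nontreated cells. None of the 10 genes passed 1.5-fold in either direction in AS, where 1.88% of all genes passed upwards and 11.4% downwards. In RC4, Cstf2 alone passed downwards and none passed upwards, against 31.8% and 8.04% of all genes, or 17.4% and 15% when each library was scaled to its median gene. In RC8, Pabpn1 alone passed downwards and none passed upwards, against 11.9% and 11.3% of all genes. The median log2 change of the 10 genes was -0.15 in AS, -0.38 at RC4 and -0.19 at RC8. In RC4, 9 of 10 were below NT in RPM, but relative to the median gene 4 were above it, Cstf3 by 0.34, Cpsf6 by 0.16, Clp1 by 0.07 and Nudt21 by 0.04 on the log2 scale. RPM is a share of the reads on genes, so less RNA of a gene and more RNA of other genes cannot be told apart. In these bulk libraries a smaller fraction of cells with an RNA and less of it per cell cannot be told apart either.

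**Figure D1:**
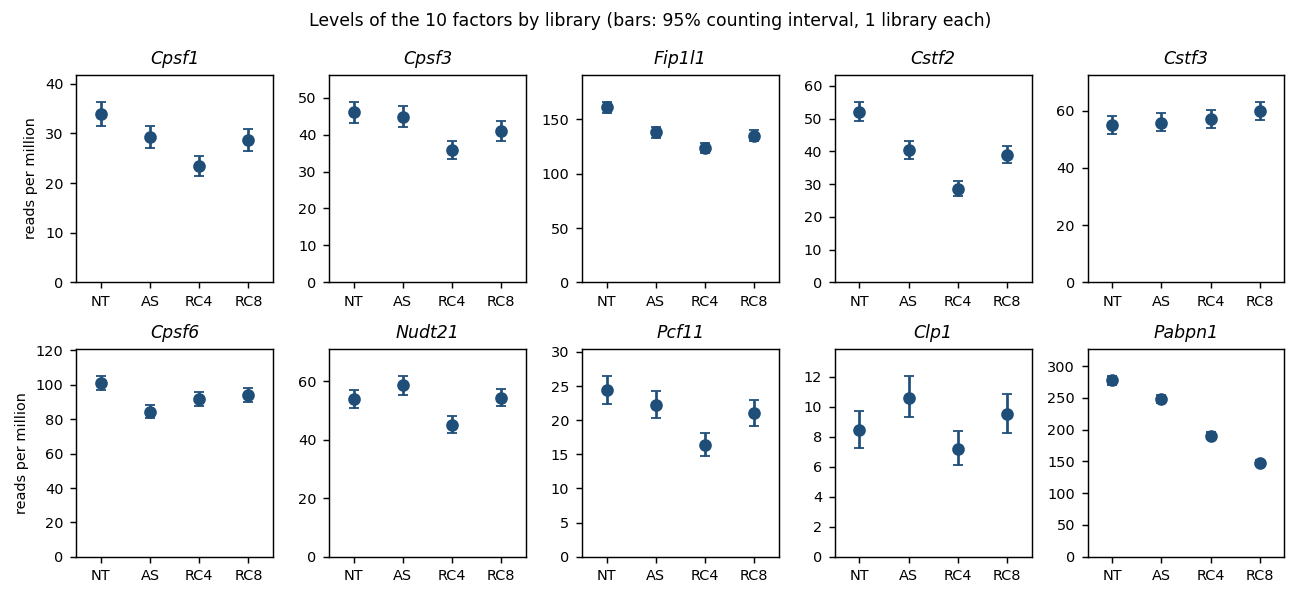
Level of each of the 10 genes in RPM (vertical axis, from 0, scaled by gene) in the NT, AS, RC4 and RC8 libraries; points are 1 library each and bars are 95% exact Poisson intervals. In 7 of the 10 panels RC4 is the lowest point, before any scaling to the median gene.

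CPSF subunits came first. Cpsf1, the large subunit of the complex, stood at 33.9 RPM in NT, 29.2 in AS, 23.4 at RC4 and 28.7 at RC8. NT lay above AS and RC8 above RC4 beyond counting error, while AS and RC8 did not separate. The log2 change in RC4 was -0.54, or -0.23 relative to the median gene. Cpsf3, the endonuclease that makes the cut, stood at 46.0, 44.7, 35.7 and 40.9 RPM in the same order. NT, AS and RC8 followed each other without separating from their neighbour, and RC4 was below RC8 beyond counting error. The RC4 change of Cpsf3 was -0.37 on the log2 scale, but -0.18 from the first count column and -0.57 from the second, and -0.06 relative to the median gene.

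Fip1l1, a subunit of CPSF that binds U-rich RNA and contacts poly(A) polymerase, shifted towards its proximal PAS and more so after 4 h of recovery than at the end of arsenite. PAS 1 held 49.7% of the reads in NT, 60.5% in AS, 67.1% at RC4 and 53.7% at RC8. The change from NT was 10.8 ± 1.21 percentage points in AS, 17.4 ± 1.21 at RC4 and 4.0 ± 1.22 at RC8 (counting SE). All 3 treated libraries were above NT, and RC8 lay closest to it. In RPM the proximal PAS stood at 80.0 in NT, 83.5 in AS, 82.9 at RC4 and 72.5 at RC8. The distal PAS, 2666 nt further on, stood at 81.0 in NT, 54.5 in AS, 40.6 at RC4 and 62.5 at RC8. The proximal level was thus 1.04-fold that of NT in AS and 1.03-fold in RC4, and the distal level 0.67-fold and 0.50-fold. As a whole, Fip1l1 went from 161 RPM in NT to 138, 123 and 135, with AS and RC8 not separated.

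CstF subunits moved in different ways. Cstf2, the subunit that contacts the downstream element, stood at 52.1 RPM in NT, 40.3 in AS, 28.7 at RC4 and 39.0 at RC8. All treated libraries were below NT, AS and RC8 did not separate, and RC4 was the lowest. The RC4 change was -0.87 on the log2 scale (-1.01 to -0.73), the only member past 1.5-fold there, and -0.56 relative to the median gene, which is inside the limit. The distal PAS 3 of Cstf2 held 81.3% of reads in NT, 77.3% in AS, 79.7% at RC4 and 75.5% at RC8. PAS 2, 2361 nt before it, held 9.48% in NT and 15.5%, 14.5% and 13.4% in the treated libraries, all above NT. The intronic PAS 1 held 9.23% in NT, 7.15% in AS, 5.79% at RC4 and 11.1% at RC8, so it was below NT until 4 h of recovery and above NT at 8 h, with only the RC4 difference (-3.44 points, -5.88 to -1.0) outside counting error. This PAS is 1 of the 2 with an A-rich stretch, and none of the shares of Cstf2 moved by 10 points.

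Cstf3, the subunit that holds CstF together, had a smaller share of reads at its intron 3 site and a larger share at its most distal site at 8 h of recovery, at a level that did not separate from NT. Its level was 54.9 RPM in NT, 55.9 in AS, 57.0 at RC4 and 59.9 at RC8, with no neighbours separated. PAS 2 in intron 3, 243 nt past the 5′ splice site, held 24.5% of reads in NT and 20.6% in AS and 14.6% in RC8. In the RC4 table, where NT stood at 23.7%, it held 17.1%. The distal PAS 5 held 51.4% in NT, 56.1% in AS and 70.2% in RC8, and 55.1% in RC4 against 49.3% for NT in that table. All treated libraries were thus below NT at the intronic PAS and above NT at the distal PAS, with RC8 farthest at 18.8 ± 1.87 points for PAS 5. In RPM PAS 2 went from 13.5 in NT to 11.5, 9.75 and 8.75 in AS, RC4 and RC8, and PAS 5 from 28.2 to 31.3, 31.4 and 42.1. PAS 4, 134 nt before PAS 5 in the 3′ UTR, held 14.7% in NT, 12.8% in AS and 7.77% in RC8, and 6.44% in RC4 against 14.5%. PAS 3 in intron 3 stayed between 7.38% and 10.4%.

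The RC4 table of Cstf3 listed a further site, PAS 1 in intron 1, which held 3.5% of reads in NT and 12.5% in RC4, or 1.95 and 7.13 RPM. This is the site that ends in a run of A in the genome, and the part of priming at that run in its reads was not tested. With it, the summed intronic share of Cstf3 was 36.2% in NT and 38.5% in RC4. Without it, and with the other shares rescaled, the change in RC4 was -4.23 points instead of 2.24.

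CFIm subunits differed in their number of ends. Nudt21, the subunit that reads UGUA, ended at its single PAS and stood at 53.8 RPM in NT, 58.5 in AS, 45.1 at RC4 and 54.4 at RC8. AS, RC8 and NT did not separate from their neighbours in that order, and RC4 was below NT beyond counting error. The RC4 change of -0.26 on the log2 scale became 0.04 relative to the median gene. Cpsf6, its partner with an arginine- and serine-rich domain, stood at 101 RPM in NT, 84.4 in AS, 91.6 at RC4 and 94.1 at RC8. AS was the lowest, and RC4 and RC8 did not separate. Its RC4 change of -0.14 became 0.16 relative to the median gene.

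Cpsf6 had 9 PASs over the tables, all in its 3′ UTR, of which 6 were listed in the AS table, 8 in the RC4 table and 6 in the RC8 table. The distal PAS 9 held 34.8% of reads in NT and 22.6% in AS, and 25.3% in NT and 12% in RC4, in their own tables. In the RC8 table it held 25.3% in NT and 28.6% in RC8. It was thus below NT by 12.2 and 13.3 points at AS and RC4 and above NT by 3.30 points at RC8. The NT share of this PAS differed by 9.5 points between tables of the same library, so it depended on which PASs were listed beside it, whereas 81.2% of the 12180 PASs compared kept their NT share within 1 point. PAS 4 held 4.92% to 5.43% in NT over the tables and 13.8% in AS, 10.9% at RC4 and 10.4% at RC8, above NT in every treated library. In RPM PAS 9 went from 35.1 in NT to 19.1 in AS, and from 25.6 to 11 in RC4 and to 26.9 in RC8.

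CFII subunits had from 164 to 550 reads per library. Clp1, an RNA kinase of CFII, had a single PAS and stood at 8.41 RPM in NT, 10.6 in AS, 7.16 at RC4 and 9.48 at RC8. Ranked by level, as AS, RC8, NT and RC4, no neighbours separated. AS lay above NT by 0.33 on the log2 scale (0.05 to 0.62). Pcf11, which binds the C-terminal domain of RNA polymerase II, stood at 24.4 in NT, 22.3 in AS, 16.3 at RC4 and 21.0 at RC8. RC4 was below the other libraries, and NT, AS and RC8 did not separate from their neighbours in that order. The RC4 change of Pcf11, -0.58 on the log2 scale, lay just inside the 1.5-fold limit and was -0.27 relative to the median gene.

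Pcf11 used its intronic PAS less in AS and in RC8 than in NT. PAS 1 held 27.3% of reads in NT, 16.7% in AS, 28.1% at RC4 and 20.5% at RC8. AS and RC8 lay below NT with differences of -10.6 points (-15.6 to -5.65) and -6.8 points (-12 to -1.62), while RC4 and NT did not separate. In RPM it stood at 6.65 in NT, 3.72 in AS, 4.59 at RC4 and 4.31 at RC8, so all treated libraries were below NT. The first 3′ UTR site, PAS 2, held 47.2% in NT, 48.4% in AS, 58.1% at RC4 and 58.7% at RC8. The most distal site, PAS 4, held 13.7% in NT, 21.6% in AS, 3.61% at RC4 and 10.3% at RC8, which made AS the highest and RC4 the lowest. Its RC4 share rested on 14 reads. PAS 3 stayed between 10.2% and 13.3%.

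Pabpn1, the nuclear poly(A) binding protein, had its lowest level and the largest share of reads at its most distal PAS at 8 h of recovery. It stood at 278 RPM in NT, 248 in AS, 190 at RC4 and 148 at RC8, with every neighbour separated. The RC8 change was -0.91 on the log2 scale (-0.97 to -0.85), and 4.54% of all genes had a lower one. PAS 2 held 44.8% of reads in NT, 41.0% in AS, 40.6% at RC4 and 27.5% at RC8. PAS 3 held 26.8%, 24.4%, 24.4% and 43.5%, so RC8 stood apart from the other 3 libraries at both sites, by -17.3 ± 0.99 and 16.7 ± 1.02 points from NT. In RPM PAS 2 went from 124 in NT to 40.6 in RC8, and PAS 3 from 74.4 to 64.2. PAS 1 in exon 6 held 28.4% in NT, 34.6% in AS, 34.9% at RC4 and 29.0% at RC8.

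The reads of Pabpn1 were not its own alone. The overlapping gene Gm20521 on the same strand was listed with nearly as many reads (5960 against 6271 in NT) and with PAS 1 and PAS 3 of Pabpn1, so the reads of the 2 genes cannot be told apart. In the entries of Gm20521, PAS 3 held 30.1% in NT and 46.5% in RC8, a change of 16.4 points, and the level change in RC8 was -0.84 on the log2 scale. PAS 1, however, held 4.55% in NT and 6.03% in AS there, against 28.4% and 34.6% in the entries of Pabpn1. The share of the exon 6 site is therefore uncertain. The RC8 shift to PAS 3 was present in both entries, but since their reads cannot be told apart the entries are not independent evidence of it.

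**Figure D2:**
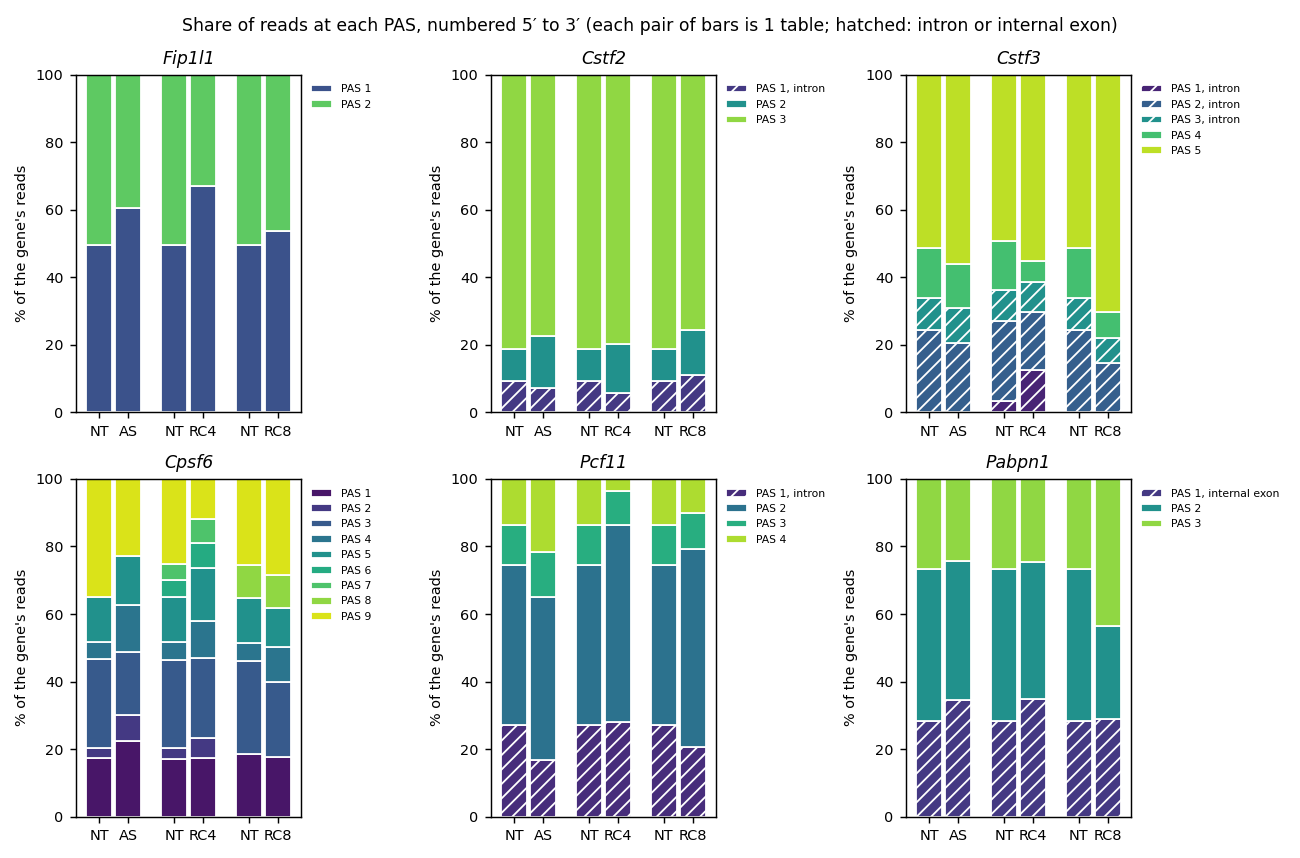
Share of the reads of a gene (vertical axis, percent) assigned to each PAS for the 6 genes with more than 1 PAS. Each pair of bars is NT and 1 treated library from the same table, colours run from PAS 1 at the bottom (5′) to the last PAS at the top (3′), and hatching marks PASs in introns or internal exons. The proximal block of Fip1l1 is tallest in RC4, the top block of Cstf3 and of Pabpn1 is tallest in RC8, and the hatched block of Pcf11 is shortest in AS.

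Counted over the genes with more than 1 PAS, 3 of 6 members had a PAS whose share changed by 10 points or more in each comparison, against 15.2% of such genes in AS, 29.0% at RC4 and 26.9% at RC8. They were Fip1l1, Cpsf6 and Pcf11 in AS and in RC4, and Cstf3, Pcf11 and Pabpn1 in RC8. The members just outside the limit were Cstf3 in RC4 (9.0 points, at PAS 1) and Pabpn1 in RC4 (6.5 points), and those just inside it were Pcf11 in AS (10.6), Fip1l1 in AS (10.8) and Pcf11 in RC4 (10.9). With shares rescaled over the PASs listed in all 3 tables, or over those without an A-rich stretch, the RC4 count was 4 instead of 3. A chi-square test of the reads per PAS, which compares 2 libraries and not conditions, gave an adjusted p below 0.01 in 5, 6 and 6 of the 6 members, against 38.7%, 57.8% and 58.5% of such genes. The median of the largest change per gene was 8.40, 9.95 and 8.65 points for the 6 members, and 4.20, 6.2 and 6.0 points for all genes with more than 1 PAS.

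**Figure D3:**
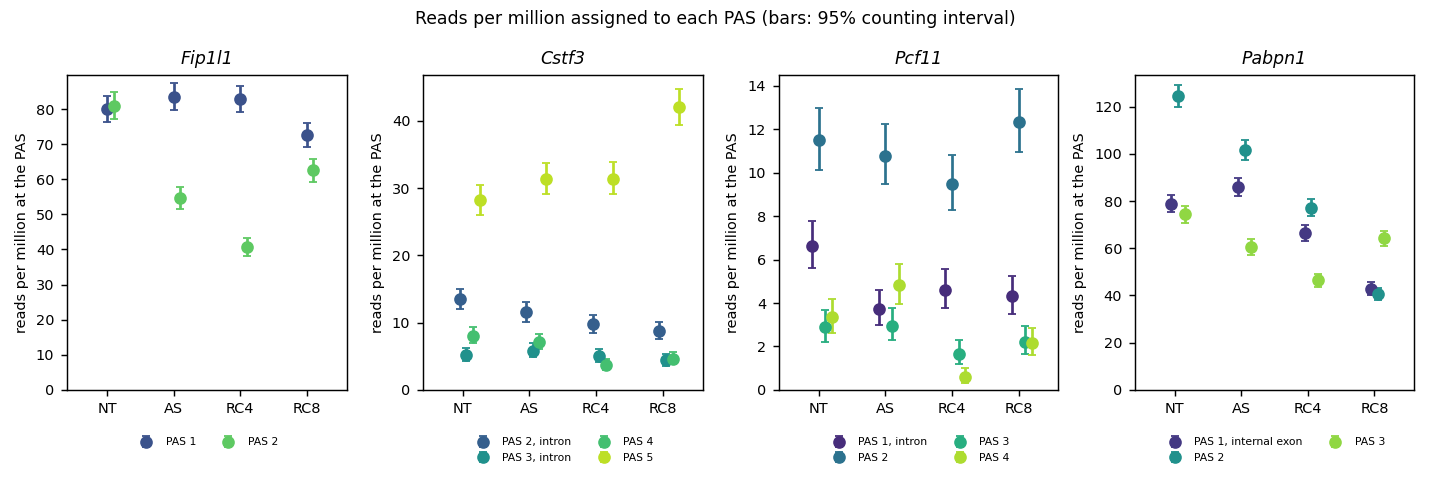
RPM assigned to each PAS (vertical axis, from 0, scaled by gene) of Fip1l1, Cstf3, Pcf11 and Pabpn1 in the 4 libraries, for PASs listed in all 3 tables, with the NT value of the AS table. Bars are 95% exact Poisson intervals. The distal PAS of Fip1l1 dips to 40.6 in RC4 while the proximal one stays between 72.5 and 83.5, PAS 5 of Cstf3 reaches 42.1 in RC8, and PAS 2 of Pabpn1 falls from 124 to 40.6.

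The share of reads at internal PASs was next compared with that of other genes that have both internal and 3′-most-exon PASs. Over those genes (1283, 1341 and 1295 of them for AS, RC4 and RC8) the median change was 1.00 point in AS, 2.40 at RC4 and -1.2 at RC8, and 39.4%, 35.0% and 57.2% of them were lower than NT. Among the 4 members with internal PASs, 3 were lower in AS, 1 at RC4 and 2 at RC8. Of those lower in AS, only Pcf11 differed from NT beyond counting error. The AS intervals of Cstf3 (-6.52 to 0.82 points) and Cstf2 (-4.44 to 0.28 points) included no change. Pcf11 in AS (-10.6 points) was lower than all but 4.05% of the genes, and Cstf3 in RC8 (33.9% in NT and 22.0% in RC8, -11.9 points with an interval of -15.3 to -8.46) lower than all but 6.95%. Pabpn1 moved the other way in AS, by 6.2 points, with 83.3% of genes below it, subject to the uncertainty given above. In RC4 no member lay outside the middle 50% of genes except Cstf2 at -3.44 points. Cstf3 lay inside it at 2.24 points, but was at -4.23 points without its A-rich intron 1 site.

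**Figure D4:**
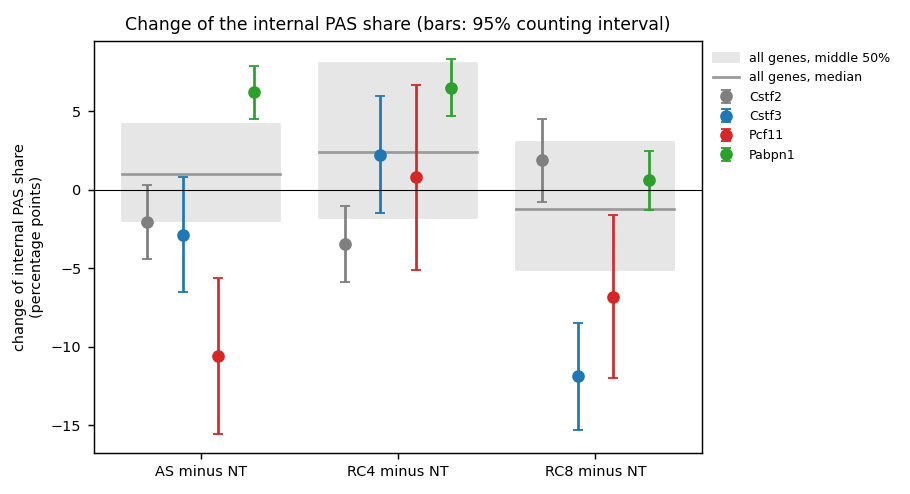
Change of the summed share of internal PASs (vertical axis, percentage points, treated minus NT) for Cstf2, Cstf3, Pcf11 and Pabpn1 in each comparison, with 95% counting intervals. Grey bands and lines are the middle 50% and the median of all genes with internal and other PASs. In AS, Pcf11, Cstf3 and Cstf2 lie below the band and Pabpn1 above it, in RC4 Cstf2 lies below, and in RC8 Cstf3 and Pcf11 lie below. The AS intervals of Cstf3 and Cstf2 include no change.

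Length changes within the 3′-most exon were summarised by REDu, the log2 ratio of treated over NT of the distal to proximal PAS ratio, taken between the 2 sites of that exon whose shares changed most. A negative REDu means that the proximal PAS gained. REDu was below 0 in 4 of 6 members in AS, 4 of 6 in RC4 and 3 of 6 in RC8, against 67.3%, 68.4% and 55.5% of all genes with at least 2 such PASs. The 4 in AS included Pabpn1, whose value did not separate from 0. Fip1l1 (-0.63, -1.05 and -0.23 in AS, RC4 and RC8) and Cstf2 (-0.78, -0.64 and -0.61) were negative in every comparison beyond counting error. Cstf3 was positive throughout, at 0.33, 1.33 and 1.37, the first of these within counting error of 0. Its sites were 134 nt apart in every comparison. Cpsf6 was -2.11 in AS and -2.12 in RC4, and 0.47% and 1.97% of all genes were lower. Pcf11 was 0.48, -2.22 and -0.72, the first of these within counting error of 0. Its AS sites were PAS 3 and PAS 4, 169 nt apart, and those of RC4 and RC8 were PAS 2 and PAS 4, 676 nt apart. Between its first and last site of that exon the AS value was 0.62. Pabpn1 was -0.01, 0.01 and 1.40, with AS and RC4 within counting error of 0. The sites compared for Cpsf6 in RC8 were 101 nt apart and not those of AS and RC4, 4183 nt apart. Between its first and last PAS the values were -0.99, -1.10 and 0.26.

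**Figure D5:**
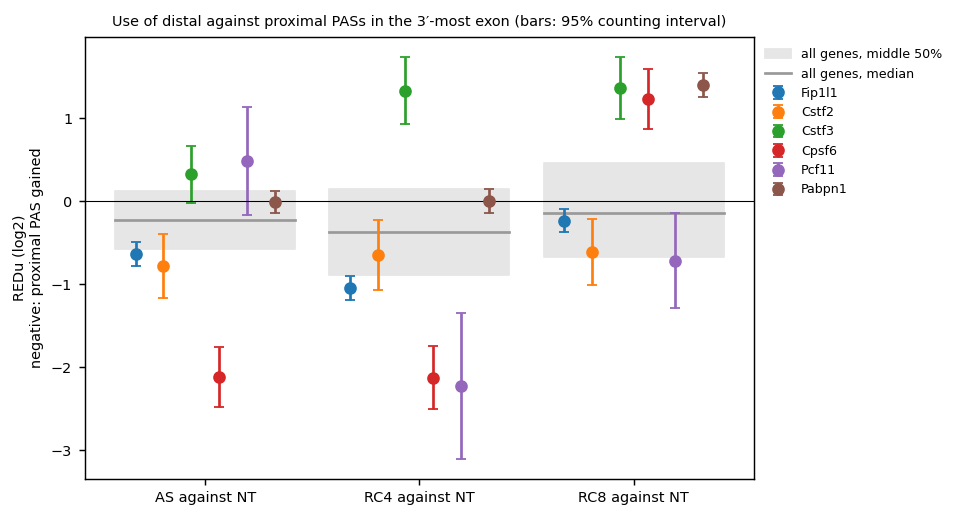
REDu (vertical axis, log2) of the 6 genes with more than 1 PAS in the 3′-most exon, for AS, RC4 and RC8 against NT, with 95% counting intervals. Grey bands and lines are the middle 50% and the median of all genes with a REDu. Cpsf6 in AS and RC4 and Pcf11 in RC4 lie far below the bands, and Cstf3, Cpsf6 and Pabpn1 in RC8 lie above.

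REDi compares in the same way a site of the 3′-most exon with an internal PAS, so values below 0 stand for a gain of internal ends. Pcf11 was 1.37 in AS, 0.26 at RC4 and 0.73 at RC8, with RC4 within counting error of 0. The site of the 3′-most exon was PAS 4 in AS and PAS 2 at RC4 and RC8, so these values are not like for like. Cstf3 was 0.38 in AS and 1.2 in RC8 for the intron 3 site, and -3.01 in RC4, where the sites with the largest changes were PAS 1 and PAS 4. With all intronic and all 3′-most-exon shares summed instead, that RC4 value was -0.14. Cstf2 was 1.08, 1.29 and -0.37, against PAS 2 in AS and RC4 and against PAS 3 in RC8, with RC8 within counting error of 0. In AS the intronic share of Cstf2 did not differ from NT beyond counting error, while PAS 2 rose from 9.48% to 15.5%. Pabpn1 was -0.41, -0.44 and -0.73. With summed shares Pcf11 was 0.91, -0.06 and 0.54, and Cstf3 was 0.19 in AS and 0.86 in RC8. Cstf2 was then 0.40, 0.73 and -0.30, and Pabpn1 was -0.42, -0.44 and -0.04. The RC8 value of Pabpn1 thus depended on the site chosen, and its internal share differed from NT by 0.60 points (-1.29 to 2.49) there. The medians of all genes were -0.17, -0.40 and 0.18.

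Other genes of 3′ end processing were counted in the same way. Of 20 listed, 19 were present in all tables, namely all but Symplk. In AS, 1 of 19 was past 1.5-fold, Cpsf2, a further CPSF subunit, at 101 RPM in NT and 45.6 in AS (log2 change -1.15), against 11.4% of all genes downwards. In RC4, 6 of 19 (31.6%) were past it, all downwards, which is near the 31.8% of all genes given above. They were Wdr33, which contacts the poly(A) signal (-1.09), Cpsf7 of CFIm (-0.99), Cstf1 of CstF (-0.88), Cpsf2 (-0.79), Scaf4, which binds the polymerase (-0.79), and the cytoplasmic Pabpc4 (-0.66). Relative to the median gene of RC4, at -0.30, only Wdr33 and Cpsf7 stayed past the limit. With that scaling 17.4% of all genes were past it downwards. In RC8, Papolg, a poly(A) polymerase (0.87), and Cstf1 (0.73) were past it upwards and Pabpc4 (-1.0) downwards, against 11.3% and 11.9% of all genes. Cstf1 thus stood at 45.2 RPM in NT, 24.6 at RC4 and 74.8 at RC8, while Cstf3 of the same complex stayed between 54.9 and 59.9.

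By PAS share, 2 of 15 of these genes passed 10 points in AS (13.3%, against 15.2% of all genes with more than 1 PAS), 2 of 14 in RC4 (14.3% against 29.0%) and 5 of 15 in RC8 (33.3% against 26.9%). Cpsf7 held 58.0% of its reads at its proximal PAS in NT and 35.7% in RC8, and Pabpc4 held 36.2% at a PAS in its first exon in NT and 15.8% in RC8. In the AS comparison Cpsf7 was listed with a single PAS at another position, which held 100% of its NT reads. Its split between PASs thus depended on which were listed. The others past the limit were Wdr33 and Rbbp6 in AS, Xrn2 and Cpsf7 in RC4, and Rbbp6, Xrn2 and Papola in RC8, of which Rbbp6, Xrn2 and Papola were named after their values were seen. Papola, the main nuclear poly(A) polymerase, held 13.2% at an internal exon PAS in NT and 24.4% in RC8.

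The 6 genes examined of the U1 snRNP and of CDK12, CDK13 and cyclin K, which are known to hold back premature polyadenylation, were all listed. Cdk12 was past 1.5-fold downwards in RC4 (42.2 RPM in NT and 26.2 in RC4), 1 of 6 (16.7%), against 31.8% of all genes. Relative to the median gene it was inside that limit. Its intronic PAS held 10.1% of reads in NT and 27.8% in RC4, 12.5% in AS and 12.6% in RC8. It was 1 of 2 of these genes with more than 1 PAS in RC4, where 29.0% of all such genes passed 10 points. Cdk13 was past 1.5-fold downwards in AS, at 11.2 RPM in NT and 7.04 in AS, again 1 of 6, against 11.4% of all genes. It was named after its values were seen. Snrnp70, Snrpa, Snrpc and Ccnk did not pass the level limit in any comparison. The limit for PAS shares could not be passed by Snrnp70, Snrpc and Ccnk, which had a single PAS each, or by Snrpa in RC8. In AS and RC4, Snrpa changed by 0.5 and 2.3 points.

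The genes whose internal PAS share changed most like that of Cstf3 over AS, RC4 and RC8 (-2.85, 2.24 and -11.9 points) were sought among 1038 genes with at least 200 reads per library. Appbp2 was nearest, at a Euclidean distance of 1.97 points, followed by Ccar1 at 2.0 and Eif5b at 2.82, where the median distance was 13.5 points. Their RC4 changes were 1.5, 3.51 and 0.82 points, and their RC8 changes were -10.1, -10.3 and -13.8 points. The RC4 value of Cstf3, 2.24 points, included its A-rich intronic site, which was listed in the RC4 comparison only. Without that site the RC4 value was -4.23 points. The search was not repeated with that value, so whether the same genes would stay nearest was not tested.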

How the data were processed

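The series holds QuantSeq FWD and QuantSeq REV libraries of NIH3T3 cells, and the REV libraries were not analysed here. Reads were trimmed and mapped by the authors, with STAR 2.5.2a and mm9 named in the submitters' processing notes, and MAAPER was run on PolyA_DB sites for genes with at least 50 reads and PASs at 5% or more. Counts of reads per gene were deposited by the authors without normalization, in 2 columns per library. The fraction of a gene's reads at each PAS was deposited by the authors for 2 conditions per table. The first was read as NT and the second as the treated library the table is named for, from the table's name and the methods, since no header states it, and every direction given rests on that reading. The deposited P values, RLD and RED scores are the authors' own comparisons and were not used. Whether counting used strand is not given in the sources used here, and opposite-strand genes overlap the last PASs of Cstf3 (Tcp11l1), Cstf2 (Nox1), Cpsf1 (Adck5) and Fip1l1 (Lnx1).

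The 2 columns were added, divided by the summed reads on genes and expressed per 1000000 (RPM). A level was called at 1.5-fold and a PAS share at 10 percentage points. Intervals were Wilson for shares, exact conditional binomial for log2 changes and exact Poisson for levels, all at 95%. Molecular identifiers are not mentioned in the sources used here, and intervals cover the counting of reads only. Where a molecule gave several reads, the intervals would be too narrow. REDu and REDi followed the formula of the methods, with the error from the delta method. An A-rich stretch was a run of 8 A between 15 bases before and 20 after the site, a run of 6 A in the 20 bases after it, or 7 A in 10 of those. Gene models were those of GENCODE vM1 on mm9. The genes and lists were chosen with earlier results of these data known. All 10 factors were named, and of the other lists at most the 8 with the largest change past a limit, with exceptions said in the text. Alternatives were median-gene scaling, each count column alone, other limits, a chi-square test of the reads per PAS and other sets of PASs. Python 3.11.15, numpy 2.4.6, pandas 2.3.3, scipy 1.17.1 and samtools 1.23.1 were used, and the calculations were tested on simulated data.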

Additional observations from a re-analysis of the deposited data

Results flagged for a closer look

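Cpsf6 and Cstf3 had scores of opposite sign in different comparisons, each outside its counting interval, and the difference between comparisons was not tested. REDu of Cpsf6 was -2.11 in AS and 1.24 in RC8, and -2.12 in RC4 and 1.24 in RC8. The RC8 score compared PASs 101 nt apart, whereas those of AS and RC4 compared PASs 4183 nt apart. With the last PAS set against the first in every comparison, the values were -0.99, -1.10 and 0.26. The 2 differences were -3.35 and -3.36 on the log2 scale. REDi of Cstf3 was 0.38 in AS and -3.01 in RC4, and -3.01 in RC4 and 1.2 in RC8, differences of 3.38 and -4.20. The RC4 score rested on the intron 1 PAS that was listed in the RC4 table only and that ends in a run of A in the genome. The 3 comparisons share the NT library.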

How the results depend on the processing

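No paired analysis was possible because each condition had 1 library. Of the members past 1.5-fold downwards, 1 in RC4 and 1 in RC8, none was left at a limit of 2-fold, 0 in RC4 and 0 in RC8, and with median-gene scaling the RC4 count was 0. From the second count column alone it was 2 in RC4, Pcf11 being added at -0.59. The count of members with a PAS change, 3 in each comparison, was 5, 6 and 5 across AS, RC4 and RC8 at 5 points and 0 in each at 20 points. By the chi-square test of reads per PAS, which compares libraries and not conditions, it was 5, 6 and 6. It stayed at 3 with genes of at least 200 reads. With PASs listed in all 3 tables, and without A-rich sites, an alternative chosen after seeing the data, it was 4 in RC4 and 3 in AS and RC8. Median-gene scaling turned the RC4 changes of Cpsf6 (0.16), Nudt21 (0.044) and Clp1 (0.068) upwards. With summed shares REDi of Pabpn1 in RC8 was -0.04 and of Cstf2 in AS 0.40. Precision is limited most for Clp1, with 190 reads in NT, and for Pcf11, with 374 reads in RC4.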
